A study of Homo sapiens with 6 samples.

Results

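PLTP and RBP7 encode carriers of lipids, and both transcripts were far lower in METTL3-silenced ARPE-19 cells than in control cells. They were the 2 genes examined here, of 7758 in the table, and they were chosen because their levels differed between the groups. Their own values are therefore given as a description without a test. ARPE-19 is a human cell line of the retinal pigment epithelium (RPE), the pigmented layer beneath the photoreceptors. METTL3 is the enzyme that writes N6-methyladenosine (m6A) into mRNA. It was targeted by a hairpin in 1 group (sh-METTL3), and the other group had a negative control hairpin (sh-Control). Every library of both groups came from cells given lipopolysaccharide (LPS) at 1 μg/ml for 24 h, so no unstimulated cells were compared. Each group had 3 libraries, and whether these came from separate cultures or infections was not stated in the sources used here, so the p-values measure only the spread between these libraries, which may be technical. The hairpins were delivered by lentivirus and the cells selected with puromycin, so an effect of the selected line and an effect of METTL3 cannot be told apart.

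PLTP, the phospholipid transfer protein, is a secreted protein that moves phospholipids between lipoprotein particles and remodels high-density lipoprotein. It belongs to the family of CETP, the cholesteryl ester transfer protein, and of the LPS-binding proteins LBP and BPI, and it can itself bind LPS. RBP7, cellular retinol-binding protein IV, is a small cytosolic protein of the family that also holds the cellular retinoic acid-binding and fatty acid-binding proteins, and it binds vitamin A inside the cell. The RPE takes up retinol, stores it as retinyl esters and returns 11-cis-retinal to the photoreceptors, and it also secretes and takes up lipoprotein particles.

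Short stretches of both genes are shown because they are the parts that bear on transcript start and on m6A. METTL3 methylates adenosines within a short consensus of which GGACT is a common form. In the longest principal transcript of each gene in GENCODE release 29, GGACT occurred at 1 site. In PLTP-205, of 2255 bases and 15 exons, it lay in the coding sequence in exon 7, at chr20:45906273-45906277 on the minus strand of GRCh38. In RBP7-201, of 636 bases and 4 exons, it lay in the 3′ untranslated region in exon 4, at chr1:10015928-10015932 on the plus strand. The capitals mark GGACT in the transcript sequence, 5′ to 3′, and the PLTP stretch crosses an exon junction.
PLTP-205: ctggacatGGACTtccggggg
RBP7-201: ggcgacgaGGACTcgtggctg

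The density of GGACT was 0.44 sites per kb in PLTP and 1.57 per kb in RBP7. Among 14428 protein-coding genes with a principal transcript, 86.5% held at least 1 GGACT and the median density was 0.93 per kb. The median gene held 3 matches. Methylation of these sites was not analysed here.

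The promoters, taken from RefSeq on GRCh38.p14 as 250 bases before to 50 bases after each start, were searched on both strands for the TATA box (TATAAA). The letters occurred in 11.5% of 35116 promoters. They were present close to the RBP7 start at chromosome 1, position 9997228, and to the upstream PLTP start at chromosome 20, position 45912155. The capitals mark TATAAA, or its reverse complement TTTATA. The RBP7 stretch lies at chr1:9997191-9997212 on the plus strand, and its match begins 29 bases before the start. The PLTP stretch lies at chr20:45912170-45912191 on the minus strand, and its match begins 28 bases before the start and overlaps a match to the reverse complement.
RBP7 promoter: ccgcctggTTTATAggtcccgg
PLTP promoter: gccggcttTATAAAggcggctg

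Neither letter string was found at the second PLTP start, at position 45910994. The window at the upstream PLTP start, position 45912155, also held an E-box (CACGTG), which 7.26% of promoters held. The nuclear receptor half-site AGGTCA, present in 13.8% of promoters, was not found in any of the 3 windows, nor were the AP-1 letters TGACTCA or a common NF-kB motif. These are matches of letters, and binding was not measured.

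Levels are read counts divided by 1 size factor per library, called scaled counts below. The table held 33.8% of the 22977 genes the authors had tested, namely those they had already called, so nearly every listed gene differed. In a limma fit on log2(scaled count + 1), 97.9% of listed genes passed a Benjamini-Hochberg adjusted p of 0.05, with 46.6% higher and 51.3% lower in METTL3-silenced cells, and the median log2 fold change was -0.21. The 3 libraries of each group did not overlap for 98.5% of listed genes. Between 10898434 and 17750052 reads fell on the listed genes per library. METTL3 itself (chromosome 14, 21498133 to 21511375, minus strand) had scaled counts of 1154, 1108 and 1091 in the control libraries and 966, 1001 and 765 in the sh-METTL3 libraries. Its transcript was at 81.5% of the control level (log2 fold change -0.30, SE 0.097, limma, Benjamini-Hochberg adjusted p = 0.032), and this call was kept in 10 of 16 alternative analyses.

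PLTP (ENSG00000100979, GRCh38 chromosome 20, 45898621 to 45912155, minus strand) was abundant in control cells. Its scaled counts were 7192, 7772 and 7326 in control replicates 1 to 3. In METTL3-silenced replicates 1 to 3 they were 1814, 1842 and 1857. The 3 silenced libraries lay close together and all of them lay far below the lowest control library. The means were 7430 ± 304 (SD, n = 3) and 1837 ± 21.7 (SD, n = 3), so that PLTP stood at 24.7% of the control level, or 4.04-fold lower. The log2 fold change was -2.01 with a standard error of 0.050. The spread of the libraries was 4.09% of the mean in control cells and 1.18% in silenced cells. At 1429 to 1944 reads, counting error alone would be 2.27% to 2.65% in the silenced libraries, so the silenced libraries differed by less than counting error.

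RBP7 (ENSG00000162444, GRCh38 chromosome 1, 9997206 to 10016020, plus strand) was moderately expressed in control cells and almost absent from METTL3-silenced cells. Scaled counts of 274, 342 and 274 were measured in control replicates 1 to 3, from 344, 356 and 293 reads. The silenced replicates 1 to 3 had 10.3, 0 and 10.1, from 11, 0 and 9 reads. No library of the silenced group came near the control range, and replicate 2, the library with the fewest reads on listed genes, had none. A limit of 3 reads for a count of 0, which is close to a one-sided bound, is a scaled count of 3.87 in that library. The exact two-sided 95% Poisson interval ran from 5.12 to 18.4 for replicate 1, from 0 to 4.75 for replicate 2 and from 4.61 to 19.1 for replicate 3, and these limits cover counting error only.

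The mean of RBP7 was 297 ± 39.2 (SD, n = 3) in control cells and 6.78 ± 5.87 (SD, n = 3) in METTL3-silenced cells. This left 2.28% of the control level, a 43.8-fold lower mean. The log2 fold change was -5.89 with a standard error of 0.76. Its size rested on few reads. Without sh-METTL3 replicate 2 the ratio of means was 29.2-fold and the log2 fold change -4.73, whereas without sh-METTL3 replicate 1 or 3 the ratio was 58.9-fold or 57.8-fold. A pseudocount of 10 in place of 1 gave a log2 fold change of -4.26, and a pseudocount of 0.1 gave -7.07. The DESeq2 estimate on the recovered reads was -5.41 with a standard error of 0.64.

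**Figure D1:**
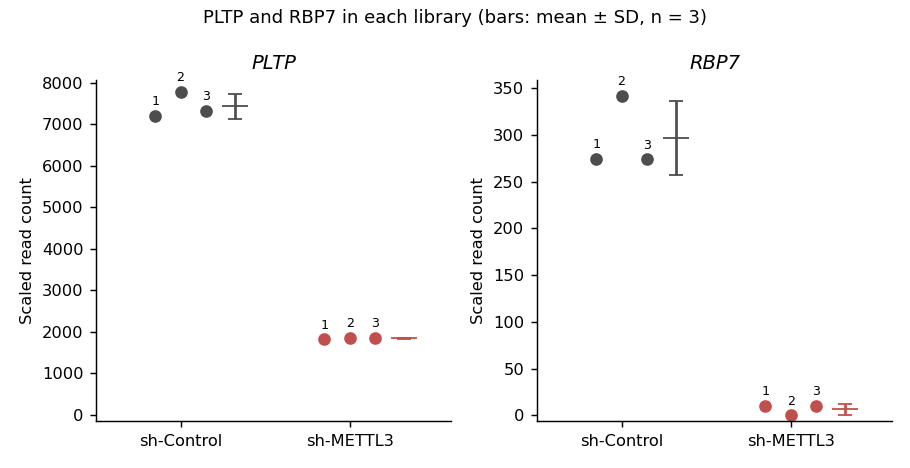
Scaled counts of PLTP and RBP7 in each library (points), with the mean and SD of each group of 3. The silenced libraries lie at 1814 to 1857 for PLTP and at 0 to 10.3 for RBP7, below all control libraries in both panels.

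**Figure D2:**
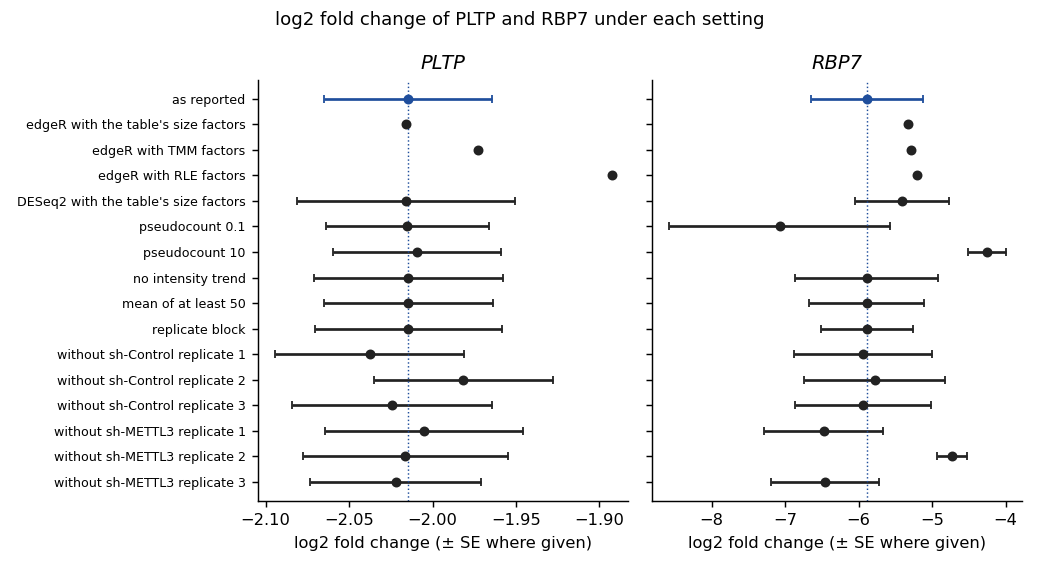
Log2 fold change (sh-METTL3 over sh-Control, with SE) of PLTP and RBP7 under the main fit and 15 alternative analyses. PLTP stays between -2.04 and -1.89, while RBP7 ranges from -7.07 to -4.26.

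Compared per kb of exon, PLTP was the more abundant transcript in both groups. Its scaled count per kb was 2924 in control cells and 723 in METTL3-silenced cells, and that of RBP7 was 345 and 7.87. The ratio of PLTP to RBP7 per kb was accordingly 8.48 in control cells and 91.8 in METTL3-silenced cells. The latter rested on the few RBP7 reads of the silenced libraries and was 61.1 without sh-METTL3 replicate 2, 124.3 without replicate 1 and 120.7 without replicate 3. Among the 7758 listed genes ordered by level per kb, PLTP moved from place 170 to place 697 and RBP7 from place 1656 to place 6928. Ordered by log2 fold change from the lowest, RBP7 held place 4 and PLTP place 416. Among the 6035 genes with a mean scaled count of at least 100 these places were 3 and 126. Because the cells were measured in bulk, fewer cells with these transcripts and less transcript per cell cannot be told apart.

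The labelled cell type was checked against RPE markers. Of 16 markers 9 were in the table, beside 33.8% of all tested genes. In METTL3-silenced cells 6 were higher and 3 lower, where 46.6% of all listed genes were higher and 51.3% lower. RPE65 and RLBP1, which define mature RPE, were not listed, so their levels were not analysed here. MITF, a regulator of pigment cell identity, had 623 ± 23.1 in control cells and 1121 ± 47.8 in silenced cells (SD, n = 3). The other higher markers were KRT8, KRT18, LRAT, RDH5 and STRA6. SERPINF1, which encodes the secreted factor PEDF, was lower, at 1404 ± 21.1 against 170.1 ± 11.8 (SD, n = 3). Also lower were PMEL, at 368 ± 5.99 against 105.4 ± 8.41, and BEST1, at 82.8 ± 4.56 against 25.4 ± 9.22 (SD, n = 3). RBP7 is also known from endothelial cells and adipocytes, and none of 5 endothelial and none of 3 adipocyte markers was listed. Of 4 macrophage markers, CD14 was listed at 25.3 in control and 1.31 in silenced cells, and CSF1R at 79.9 and 159. The part of any other cell type in the results was not tested.

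Of 15 other genes of the RBP7 family 5 were in the table, near the 33.8% of all tested genes, with 4 higher and 1 lower in METTL3-silenced cells where 46.6% of all listed genes were higher. RBP5, or cellular retinol-binding protein III, had 211, 230 and 228 in control libraries and 285, 263 and 352 in silenced libraries. All silenced libraries were above the controls, at a log2 fold change of 0.42 (limma, adjusted p = 0.0268), and it was called in 11 of 16 alternative analyses. RBP2, the intestinal form, had 1, 0 and 0 reads in control libraries and 9, 3 and 3 in silenced libraries, so its level was near the limit of detection throughout.

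CRABP2, which delivers retinoic acid to its nuclear receptors, rose from 23.6 ± 2.46 to 70.8 ± 14.4 (SD, n = 3), a log2 fold change of 1.53 (limma, adjusted p = 0.000476). FABP6, the ileal bile acid-binding protein, was the only other listed family member that was lower, with 12, 11 and 14 reads in control libraries and 1, 1 and 0 in silenced libraries. Per kb, RBP5 was at 163 scaled counts in control cells and 219 in silenced cells, so RBP7 lay above RBP5 in control cells and below it in METTL3-silenced cells.

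Around RBP7, 16 of 45 other retinoid-handling genes were listed, near the 33.8% of all tested genes. Of these 11 were higher, 4 lower and 1 not called, where 46.6% of all listed genes were higher and 51.3% lower. Their median log2 fold change was 0.38. At least a doubling was seen in 5 and at least a halving in 3, where 17.4% and 13.1% of all listed genes changed as much. STRA6, the membrane receptor that takes up retinol from its serum carrier, had scaled counts of 15.2, 20.2 and 3.74 in control libraries and 101, 96.7 and 72.8 in silenced libraries. Control replicate 3 was the lowest, and the groups were well apart (log2 fold change 2.94, SE 0.48, limma, adjusted p = 0.000848). RDH5, the 11-cis-retinol dehydrogenase of the visual cycle, had 73.4, 73.0 and 63.6 in control libraries and 209.9, 202.3 and 209.4 in silenced libraries. Its log2 fold change was 1.56 (SE 0.14). LRAT, which esterifies retinol for storage, rose from 129 ± 12.2 to 258 ± 25.6 (SD, n = 3). Of the 6 listed genes of retinol and retinal oxidation or reduction 5 rose and RDH11, a retinal reductase, fell by 0.49 on the log2 scale. Of the 5 that rose, DHRS3 was called in 10 of 16 alternatives and RDH13 in 14 of 16.

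The genes of retinoic acid metabolism were mixed. CYP26B1, which breaks down retinoic acid, fell from 1132 ± 54.3 to 538 ± 36.4 (SD, n = 3). ALDH1A1, which makes retinoic acid from retinal, had 0 reads in all 3 control libraries, which allows scaled counts of 2.39 to 2.88, and 5, 4 and 2 reads in the silenced libraries, so no fold change is given. BCO2, which cleaves carotenoids, fell from 901 ± 46.5 to 312 ± 73.7 (SD, n = 3). Among retinoid-responsive genes, TGM2, a transglutaminase, rose by a log2 fold change of 1.51 and RARRES2, the precursor of chemerin, by 1.06. RARRES3, a phospholipid-modifying enzyme, changed by a log2 value of -1.28, and RARRES1 was not called (0.33, limma, adjusted p = 0.148) but was called in 4 of 16 alternatives. BCO2 and RARRES3 lie on chromosome 11, where 76.3% of 578 listed genes were lower against 49.3% of the 7180 listed genes elsewhere. The part of this chromosome in their values was not tested.

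**Figure D3:**
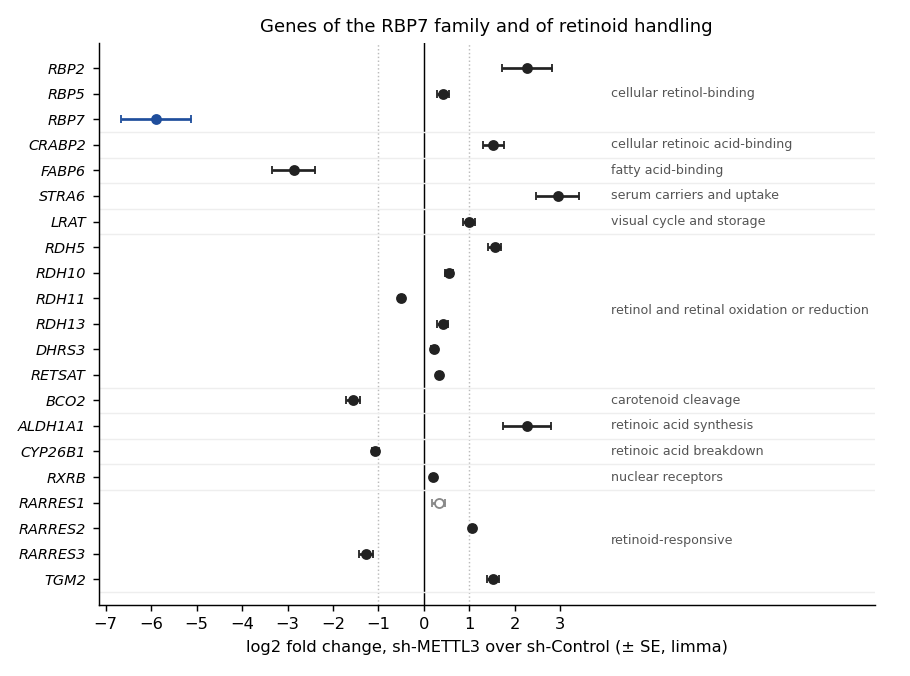
Log2 fold change (sh-METTL3 over sh-Control, with SE from limma) of genes of the RBP7 family and of retinoid handling, grouped by role, with RBP7 in blue and genes that were not called as open points. RBP2, RBP5 and CRABP2 lie right of 0 and RBP7 at -5.89.

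The lipid transfer relatives of PLTP were not in the table at all. None of 12, which include CETP, LBP, BPI and the BPI fold proteins, was listed, so PLTP was the only listed gene of its family, and the levels of the others were not analysed here. Of the 61 other genes of lipoprotein remodelling and uptake, these relatives included, 17 were in the table, beside 33.8% of all tested genes. Of these 7 were higher, 9 lower and 1 not called, where 46.6% of all listed genes were higher and 51.3% lower. The median log2 fold change was -0.31. At least a halving was seen in 6 and at least a doubling in 2, or 35.3% and 11.8%. Of all listed genes 13.1% were at least halved and 17.4% at least doubled.

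Among 21 apolipoproteins 8 were listed, with 5 lower and 3 higher, beside 33.8% of tested genes listed and 51.3% of listed genes lower. APOE, a lipid carrier secreted by the RPE, had scaled counts of 288, 271 and 234 in control libraries and 65.3, 43.8 and 71.7 in silenced libraries. Its silenced libraries were all far below the controls, at a log2 fold change of -2.14 (SE 0.20, limma, adjusted p = 1.82e-05). APOC1, an inhibitor of CETP encoded beside APOE, changed by -1.62, from 56.7 ± 12.0 to 18.1 ± 5.59 (SD, n = 3). APOL1, a secreted trypanolytic factor carried on high-density lipoprotein, fell from 732 ± 83.3 to 95.3 ± 37.4 (SD, n = 3). APOL3 had 72, 35 and 50 reads in control libraries and 0, 1 and 5 in silenced libraries, and APOL6 changed by a log2 value of -0.96. In the other direction, CLU, or clusterin, rose from 726 ± 40.1 to 1911 ± 226 (SD, n = 3). APOL2 rose by a log2 value of 0.37 and APOO by 0.51, the latter called in 12 of 16 alternative analyses.

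The enzymes, exporters and receptors that act on the same particles also went both ways. ANGPTL4, an inhibitor of lipoprotein lipase, changed by a log2 value of -1.43, from 351 ± 45.6 to 130.3 ± 26.6 (SD, n = 3). GPIHBP1, the anchor of lipoprotein lipase, had 3, 0 and 0 reads in control libraries and 14, 3 and 6 in silenced libraries, and was called in 13 of 15 alternatives. ABCA1, which exports cholesterol and phospholipid to nascent high-density lipoprotein, rose from 1285 ± 70.3 to 2055 ± 130.1 (SD, n = 3). SCARB1, the receptor for high-density lipoprotein, rose by a log2 value of 0.72. SORL1, a sorting receptor of the LDL receptor family on chromosome 11, changed by -1.08. LRP1, a large receptor that takes up APOE-bearing particles, was not called (0.16, limma, adjusted p = 0.2625) but was called in 3 of 16 alternatives. APOE and APOC1 had the same direction as PLTP, and ABCA1 and SCARB1 the opposite one.

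Nuclear receptors of the LXR and PPAR families sense oxysterols and fatty acids, and PLTP is a known target of LXR and of the bile acid receptor FXR, and RBP7 of PPARG. Of 31 receptors, coactivators and usual targets 15 were listed, beside 33.8% of all tested genes. Of these 7 were higher and 8 lower, and their median log2 fold change was -0.44. All 4 listed receptors and coactivators were lower, as were 51.3% of all listed genes. NR1H3, which encodes LXRα, had scaled counts of 323, 328 and 335 in control libraries and 107, 119.8 and 168 in silenced libraries. The groups were apart, at a log2 fold change of -1.34 (SE 0.16, limma, adjusted p = 0.000118), and the gene lies on chromosome 11, where 76.3% of listed genes were lower. PPARGC1B, a coactivator of mitochondrial genes, changed by -1.31, PPARA by -0.54 and PPARD by -0.50. Of the 3 listed LXR targets, ABCA1 rose, APOE fell and MYLIP, a ubiquitin ligase for the LDL receptor, changed by -0.95 and was called in 13 of 16 alternatives. Of the 8 listed PPAR targets 6 were higher and 2 lower, where 46.6% of all listed genes were higher. PLIN2, the coat protein of lipid droplets, rose from 4929 ± 40.3 to 9955 ± 381 (SD, n = 3). The lower PPAR targets were ANGPTL4, at a log2 fold change of -1.43, and CPT1A, at -0.44, the latter on chromosome 11. Neither NR1H2 nor PPARG was listed, so their levels were not analysed here.

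**Figure D4:**
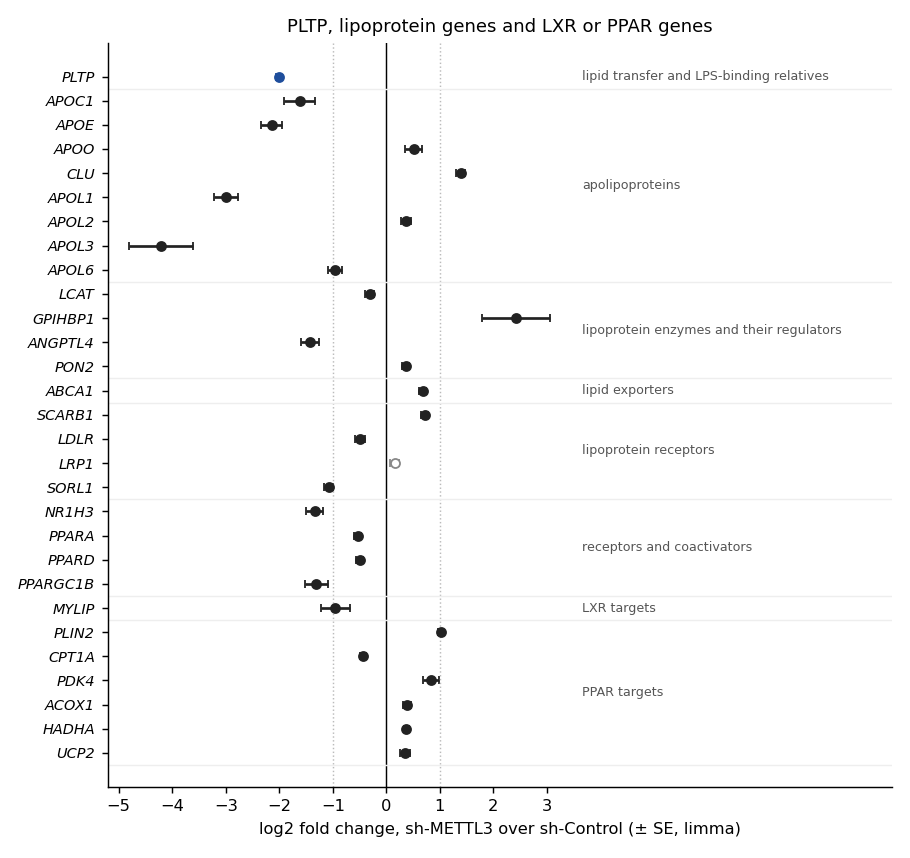
Log2 fold change (sh-METTL3 over sh-Control, with SE from limma) of PLTP (blue), other lipoprotein genes and LXR or PPAR genes, grouped by role, with genes that were not called as open points. Of the 8 apolipoproteins 5 lie left of 0, as do all 4 receptors and coactivators.

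Inside the cell, other proteins carry lipids between membranes. Of 62 such genes 32 (51.6%) were listed, beside 33.8% of all tested genes. Of these 17 were higher and 15 lower, where 46.6% of all listed genes were higher and 51.3% lower. Their median log2 fold change was 0.29. At least a doubling was seen in 4 and at least a halving in 4, or 12.5% each. Of all listed genes 17.4% were at least doubled and 13.1% at least halved. No listed member of this group changed as much as RBP7. PITPNM3, of the phosphatidylinositol transfer family, rose from 141 ± 14.5 to 774 ± 58.6 (SD, n = 3), a log2 fold change of 2.45. ESYT3, a tether between the endoplasmic reticulum and the plasma membrane, rose by 1.90 and GLTPD2, of the glycolipid transfer family, by 1.71, both from scaled counts under 10. SEC14L5 had 0 reads in all 3 control libraries and 2, 1 and 9 in silenced libraries and was called in 9 of 15 alternatives. SEC14L6 changed by -1.96, OSBPL6, an oxysterol-binding protein, by -1.26, and GRAMD1B, which moves cholesterol from the plasma membrane, by -1.31. C2CD2L, which transfers phosphatidylinositol, changed by -1.02, and like GRAMD1B it lies on chromosome 11. The 3 listed lysosomal carriers NPC1, NPC2 and GM2A were all higher, as were 46.6% of all listed genes. Their log2 fold changes were 0.40, 0.32 and 0.80, and NPC1 was called in 12 of 16 alternatives.

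The genes around PLTP and RBP7 on the chromosome were examined next. Within 250 kb of PLTP 6 of 21 other protein-coding genes were listed, with 4 lower, 1 higher and 1 not called, beside 33.8% of tested genes listed and 51.3% of listed genes lower. MMP9, a secreted gelatinase that starts 96.8 kb away, had scaled counts of 156, 149 and 163 in control libraries and 3.73, 5.15 and 8.96 in silenced libraries. All silenced libraries were far below the controls, at a log2 fold change of -4.56 (SE 0.29) and a 26.2-fold lower mean. PCIF1, which methylates the first adenosine of mRNA beside the cap, changed by -0.44. WFDC3 changed by -0.89, DNTTIP1 by -0.37 and SPATA25 by 1.06, with WFDC3 called in 12 of 15 alternatives and DNTTIP1 in 10 of 16. The antisense transcript AL162458.1 changed by 1.77, and SLC12A5-AS1, at scaled counts of 9.57, 23.1 and 9.35 against 1.87, 0 and 3.36, by -2.57, with a range of -3.87 to -0.99 over the alternatives. The first overlaps PCIF1 in part and the second MMP9 in part, each on the opposite strand. Without known strandedness, reads in bases shared with the partner cannot be assigned to either gene. The number of shared exonic bases was not examined for these pairs.

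CTSA, which encodes the lysosomal protective protein, overlaps the end of PLTP on the opposite strand. Its scaled counts were 4831, 4979 and 4751 in control libraries and 5675, 5424 and 5116 in silenced libraries. It was not called, with a log2 fold change of 0.15 (limma, adjusted p = 0.0526), but was called in 4 of 16 alternative analyses. The genes share 200 exonic bases, at chromosome 20, 45898621 to 45898820, which are 7.87% of the exonic length of PLTP and 3.42% of that of CTSA. Whether the counting used strand was not given in the sources used here, so reads in these bases cannot be assigned to either gene. Within 250 kb of RBP7 3 of 6 other protein-coding genes were listed, beside 33.8% of all tested genes. UBE4B, a ubiquitin ligase, changed by 0.34, KIF1B, a kinesin motor, by -0.33, and CLSTN1, a calsyntenin, was not called (0.17, limma, adjusted p = 0.0557) but was called in 5 of 16 alternatives. No listed neighbour of RBP7 changed by as much as 1 on the log2 scale.

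**Figure D5:**
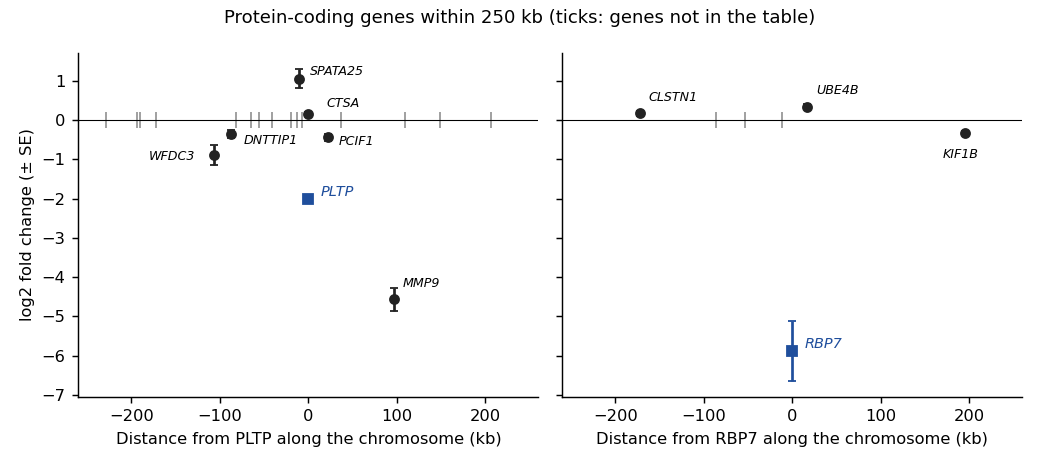
Log2 fold change (with SE) of protein-coding genes within 250 kb of PLTP (left) and RBP7 (right) against distance along the chromosome in kb, with ticks for genes not in the table. MMP9 at -4.56 is the only neighbour further from 0 than PLTP, and the neighbours of RBP7 lie between -0.33 and 0.34.

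The genes whose levels followed the members most closely over the 6 libraries were named by Pearson's r on log2(scaled count + 1), as a description. For PLTP these were TP53BP1, PAFAH1B2, LIMD2, PTN and MICAL2, with r from 0.9994 to 0.9997. For RBP7 they were FADD, DAP, PTPN3, MTMR9 and SRGAP2, with r from 0.995 to 0.998. All listed genes had been selected for a difference between the same 2 groups, which raises such correlations. Of 5724 protein-coding genes compared, 1675 had an r above 0.95 with PLTP and 462 with RBP7, and the median absolute r was 0.949 and 0.889. The size of the change was not matched, since the log2 fold changes of the named genes ran from -2.58 to -0.65 for PLTP and from -0.80 to -0.19 for RBP7.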

How the data were processed

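RNA from 3 sh-Control and 3 sh-METTL3 libraries of LPS-treated ARPE-19 cells was sequenced. The submitters' processing notes name HISAT2 2.0.5 and hg38. The published methods give Cufflinks with RefSeq mRNAs on single-end reads, whereas the table has Ensembl genes whose starts and ends all match GENCODE release 29. The read counter and strandedness were not given in the sources used here. For each library the authors deposited a signal, the read count divided by 1 size factor, and 100% of values gave whole reads (tolerance 0.01). The authors also deposited for every gene a log2 fold change with its p-value, raw and adjusted, which were not used except that they gave the number of tests, 22977. All deposited adjusted p-values were below 0.05, so the table holds only genes already called, and counts of calls describe a preselected list. Symbols of 13 genes that had become dates were restored from GENCODE. The total library depths are unknown, and only reads on listed genes were counted.

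limma 3.58.1 in R 4.3.3 was fitted with an intensity trend to log2(scaled count + 1) of all 7758 genes, with Benjamini-Hochberg adjustment for 22977 tests at a threshold of 0.05. On this scale the fold change of a weak gene depends on the pseudocount. Alternatives were edgeR 4.0.16 with the size factors of the table, TMM or RLE, DESeq2 1.42.0, pseudocounts of 0.1 and 10, no intensity trend, a mean of at least 50, adjustment over the listed genes, a replicate block, a doubling or halving limit, and each library left out. The fits were tested on simulated data. Whether same-numbered libraries were paired was not stated in the sources used here, and the main fit did not pair them. Python 3.11.15, pandas 2.3.3 and scipy 1.17.1 were used for the summaries.

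The members and gene lists were chosen with earlier results of these data known. The text names every listed relative and apolipoprotein, of each list at most the 8 genes with the largest change of at least 1 (log2) without overlap, genes within 250 kb, and for each member the 5 protein-coding genes (mean of at least 100) most like it. Some results under this rule are not reported here. LRAT, RDH11, RDH13, DHRS3, ABCA1, SCARB1, MYLIP, LRP1, RARRES1, PPARA, PPARD, CPT1A, NPC1, NPC2, GM2A and the marker genes were named after their values were seen. RefSeq promoters matched both genes. Protein sequences were not used here.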

Additional observations from a re-analysis of the deposited data

How the results depend on the processing

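The direction of PLTP and RBP7 was the same in all 15 alternatives that give them a fold change. The log2 fold change of PLTP ran from -2.04 to -1.98 with each library left out and moved to -1.89 with RLE factors, which shifted the median of all listed genes by 0.12. That of RBP7 ran from -6.48 to -4.73 with each library left out and moved to -4.26 with a pseudocount of 10. With RLE factors 3703 listed genes were higher and 2871 lower. With each library left out, 3138 to 3467 listed genes were higher and 3392 to 3823 lower. Requiring a doubling or halving left 1352 listed genes higher and 1017 lower, since the requirement is stricter. It left 2 higher and 1 lower in the RBP7 family, and 5 higher and 3 lower among retinoid-handling genes. In the list of PLTP and lipoprotein genes it left 2 higher and 6 lower. Among intracellular lipid transfer proteins 4 were higher and 4 lower, and among LXR, FXR and PPAR genes 2 higher and 4 lower. A mean of at least 50 left 2 higher and 0 lower in the RBP7 family, since RBP2, CRABP2 and FABP6 were then not tested. The correlations of deviations between same-numbered libraries were 0.0036, 0.0193 and -0.015. They showed no shared deviation by replicate number, but cannot tell whether same-numbered libraries were prepared together. With the replicate block, the log2 fold changes were -2.01 (SE 0.056) for PLTP and -5.89 (SE 0.63) for RBP7, and 7481 genes were called against 7597 without it. Below about 10 reads a library, as for RBP7 in silenced cells, the size of a fold change depended on the pseudocount.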
